A study of Mus musculus with 10 samples.

Results

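The expression of 10 early response transcription factor genes was followed in mouse Leydig cells, the testosterone-producing cells of the testis: the NR4A orphan nuclear receptors Nr4a1, Nr4a2 and Nr4a3, the zinc finger factors Egr1, Egr2 and Egr3, the Krüppel-like factors Klf2, Klf4 and Klf6, and Ier2. They were found by gene symbol, and all 10 were present among the 25239 symbols of the count table. The RNA-seq series, whose title concerns ketogenesis in Leydig cells and testicular aging, held 10 libraries in 4 groups. MLTC-1 cells, an established mouse Leydig tumor line, had been given DMSO, the solvent control, in 3 libraries or hymeglusin, an inhibitor of the HMG-CoA synthases, in 3 libraries. The primary Leydig cells were those of mice 2 months old in 2 libraries and 24 months old in 2 libraries, with no treatment named. The labels give no dose or duration for hymeglusin, no genotype or strain, and no description of how the primary cells were isolated. They do not say whether libraries of a group came from separate cultures or animals, so the p-values measure the spread between these libraries, which may be technical.

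Immediate early genes such as these are transcribed without new protein synthesis when a hormone, growth factor or stress reaches the cell, through cAMP and CREB, through ERK and serum response factor, and, for Nr4a1, through MEF2. In Leydig cells luteinizing hormone raises cAMP and with it NR4A1, which binds the promoters of steroid genes such as Star, the mitochondrial cholesterol carrier, and genes of the 3-beta-hydroxysteroid dehydrogenases. The same genes are also known to be induced when tissue is dissociated into cells.

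Promoter sequence was taken from RefSeq (GRCm38.p6, the build of the deposited counts) for 7 of the 10 members. Nr4a1, Nr4a2, Nr4a3, Egr2, Klf2, Klf4 and Klf6 were matched. Egr1, Egr3 and Ier2 had no entry. Windows of 300 bases, from 250 before to 50 after a transcript start, were searched on both strands. The 7 members had 11 windows, as Egr2 had several, and some Egr2 windows held no TGACG. A member was counted if any of its windows held a motif, whereas the shares of all promoters count single windows. The TGACG core of the cAMP response element, which CREB binds, stood in 6 of the 7 matched members, all but Klf6, and in 20.8% of all 32817 promoters of that length. Nr4a1, Nr4a2 and Nr4a3 each held 4 copies, a number reached by 76 promoters (0.232%). The full element TGACGTCA, which contains the core on both strands, stood in none of the 7 (1.79% of all promoters), the NR4A element AAAGGTCA in none (1.51%) and the EGR element GCGTGGGCG in none (0.612%). Among the 7, a CArG box, the serum response factor motif, was found for Egr2 alone (1.63% of all promoters). The TATAAA box was found for Nr4a2 alone (13.6%). The stretches printed here show how the TGACG cores are spread in the NR4A genes and how they stand beside the CArG box of Egr2. Capitals mark TGACG, read as CGTCA where it lies on the other strand, and in Egr2 the CArG box as well. Nr4a1 is printed from chr15:101266596-101266845 (plus strand), Nr4a2 from chr2:57124004-57124253 (minus strand) and Egr2 from chr10:67537619-67537868 (plus strand), each the 250 bases before a RefSeq start. Nr4a3 is printed from chr4:48045055-48045107 (plus strand), which ends 30 bases past the outermost RefSeq start of the gene and holds 3 of its 4 cores.
Nr4a1: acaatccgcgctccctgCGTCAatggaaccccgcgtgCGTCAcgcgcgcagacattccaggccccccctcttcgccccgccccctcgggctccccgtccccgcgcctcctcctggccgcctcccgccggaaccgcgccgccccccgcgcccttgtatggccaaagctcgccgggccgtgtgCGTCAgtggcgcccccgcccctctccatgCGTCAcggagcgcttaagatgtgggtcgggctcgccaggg
Nr4a2: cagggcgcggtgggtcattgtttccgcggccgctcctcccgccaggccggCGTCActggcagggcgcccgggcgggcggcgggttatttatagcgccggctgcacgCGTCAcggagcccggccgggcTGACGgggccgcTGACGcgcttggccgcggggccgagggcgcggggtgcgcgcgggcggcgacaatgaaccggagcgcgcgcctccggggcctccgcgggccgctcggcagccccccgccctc
Nr4a3: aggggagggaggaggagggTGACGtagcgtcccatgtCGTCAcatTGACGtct
Egr2: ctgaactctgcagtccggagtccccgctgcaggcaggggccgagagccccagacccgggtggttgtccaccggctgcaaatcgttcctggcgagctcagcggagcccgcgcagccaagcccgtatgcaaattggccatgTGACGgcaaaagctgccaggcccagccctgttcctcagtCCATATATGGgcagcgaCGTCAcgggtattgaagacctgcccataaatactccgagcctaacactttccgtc
These matches describe letters in a window. They are not evidence of binding.

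Total counts ran from 17407456 to 34787330 per library. Replicates differed more in the primary cells: chi-square per degree of freedom between libraries of a group was 3.44 to 7.67 in MLTC-1, 18.9 at 2 months and 134 at 24 months. The 24-month libraries also gave 9.65% and 6.64% of their counts to their 10 most abundant genes, against 2.77% to 4.80% elsewhere. Summed markers of Leydig cells were abundant in every library, but Hsd17b3, the enzyme that makes testosterone in adult Leydig cells, was at 0.0126 CPM on average in DMSO-treated MLTC-1 and at 1000 CPM at 2 months.

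Levels are given first, as CPM, counts relative to a library's total after TMM scaling across all 10 libraries, and they are a description of each library. In the NR4A family, Nr4a1, the best-studied NR4A factor of Leydig cells, was at 34.8, 36.5 and 39.3 CPM with DMSO, 85.8, 84.8 and 89.7 with hymeglusin, 15.9 and 18.0 at 2 months, and 31.5 and 51.8 at 24 months. Every hymeglusin library stood above every other library, the 24-month and DMSO libraries overlapped, and the 2-month libraries were lowest. Nr4a2, best known from dopamine neurons, had no count in the 3 DMSO libraries and 0, 2 and 2 counts with hymeglusin. It was at 1.94 and 1.89 CPM at 2 months (47 and 48 counts) and at 1.02 in both 24-month libraries (14 and 23 counts). Nr4a2 was thus a transcript of the primary cells, at a low level, and higher in both 2-month than in both 24-month libraries. Nr4a3 was at 0.357, 0.564 and 0.531 CPM with DMSO, 1.03, 0.690 and 1.06 with hymeglusin, 0.741 and 0.631 at 2 months, and 0 and 0.976 at 24 months. Libraries of neighbouring groups overlapped for Nr4a3 throughout the order of the 4 groups, and the first 24-month library, the shallowest of all, held no Nr4a3 count.

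Each EGR gene stood higher in the primary cells than in MLTC-1. Egr1, a widely used marker of early gene induction, was at 4.32, 5.01 and 4.74 CPM with DMSO, 8.74, 8.96 and 8.14 with hymeglusin, 819 and 1004 at 2 months, and 617 and 1494 at 24 months. Its 24-month pair lay on either side of the 2-month pair. Egr2, a factor of Schwann cells and lymphocytes, was at 0.595, 0.282 and 0.796 CPM with DMSO, 0.413, 0.558 and 0.432 with hymeglusin, 3.75 and 6.83 at 2 months, and 49.2 and 126 at 24 months. Both 24-month libraries stood above both 2-month libraries, and the MLTC-1 groups overlapped at the bottom. Egr3, which often follows Egr1, was at 0.357, 0.310 and 0.228 CPM with DMSO, 0.894, 0.558 and 0.806 with hymeglusin, 2.88 and 4.30 at 2 months, and 3.36 and 3.15 at 24 months. Both primary groups overlapped for Egr3 and were above both MLTC-1 groups.

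Among the Krüppel-like factors, Klf2, a factor of quiescent endothelium and T cells, was at 9.08, 7.47 and 8.19 CPM with DMSO, 13.1, 13.2 and 15.4 with hymeglusin, 86.5 and 122 at 2 months, and 514 and 468 at 24 months. All 4 groups were fully separate for Klf2, in the order DMSO, hymeglusin, 2 months and 24 months. Klf4, a reprogramming and epithelial barrier factor, was at 3.17, 3.24 and 3.38 CPM with DMSO, 9.22, 9.23 and 8.46 with hymeglusin, 105 and 145 at 2 months, and 87.1 and 171 at 24 months. Its primary groups overlapped. Klf6, an injury-response factor, was at 23.3, 26.0 and 26.1 CPM with DMSO, 43.7, 49.6 and 48.3 with hymeglusin, 55.3 and 75.8 at 2 months, and 87.0 and 286 at 24 months. No groups overlapped for Klf6, but the 24-month libraries were far from each other. Ier2, a small nuclear immediate early protein, was at 50.4, 47.1 and 47.0 CPM with DMSO, 49.4, 40.9 and 50.4 with hymeglusin, 296 and 354 at 2 months, and 1236 and 1091 at 24 months. Ier2 stood higher at 2 months than in MLTC-1 and higher again at 24 months with no overlap, while the MLTC-1 groups overlapped.

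**Figure D1:**
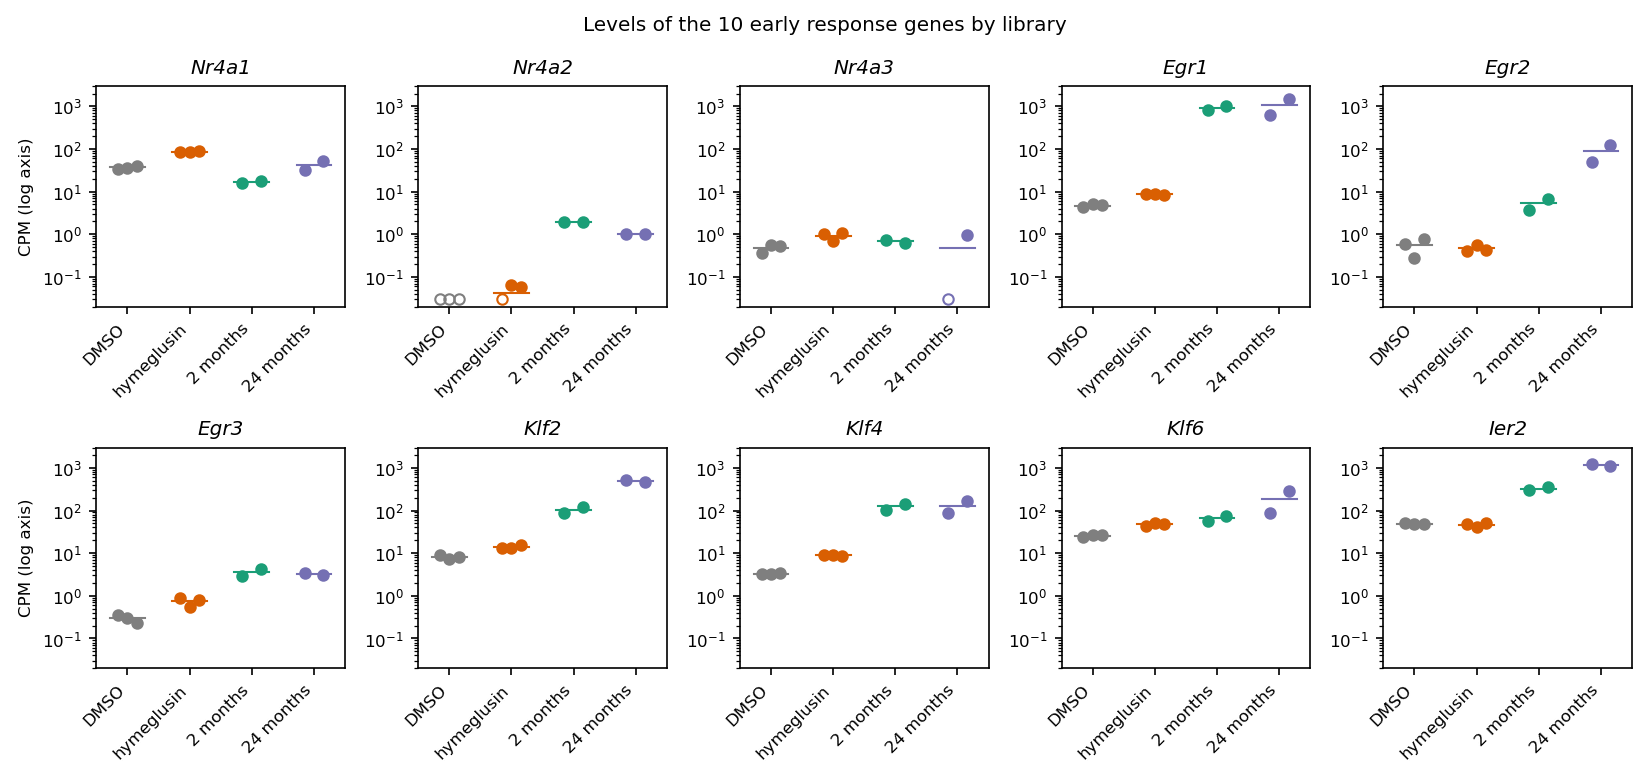
Level of each gene in every library (CPM on a log axis) for MLTC-1 with DMSO or hymeglusin and for primary Leydig cells of 2 or 24 months. Points are libraries, horizontal lines are group means, and open points at the bottom are libraries with no count. Nr4a1 was highest in the 3 hymeglusin libraries, at 84.8 to 89.7 CPM, whereas Egr1 was at 4.32 to 8.96 CPM in all MLTC-1 libraries and at 617 to 1494 CPM in primary cells.

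Levels can be compared between genes only per length, so CPM was divided by the length of the longest GENCODE transcript in kilobases. On that scale Nr4a1 gave nearly all NR4A transcripts, with 99.3% to 99.6% of the family's summed level in MLTC-1, 90.3% to 91.7% at 2 months and 97.7% to 97.8% at 24 months. Nr4a2 made up 6.90% to 7.85% of the family at 2 months and 1.38% to 2.27% at 24 months. Egr1 led the EGR genes in each group, with 76.4% to 86.6% in DMSO, 83.8% to 85.8% with hymeglusin, 98.5% to 98.9% at 2 months and 88.5% to 88.8% at 24 months. The Egr2 share was 0.684% to 1.01% at 2 months and 10.7% to 11.3% at 24 months. The leading Krüppel-like factor depended on the cells: Klf6 led in MLTC-1, with 48.1% to 54.6% in DMSO and 50.5% to 53.5% with hymeglusin. Klf2 led in primary cells, with 49.5% to 50.2% at 2 months and 67.1% to 84.9% at 24 months. Klf4 held 36.2% to 36.7% at 2 months and 8.77% to 15% at 24 months, where its own level was 129 ± 59.5 CPM (SD, n = 2), close to the 125 ± 27.9 CPM (SD, n = 2) of 2 months.

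**Figure D2:**
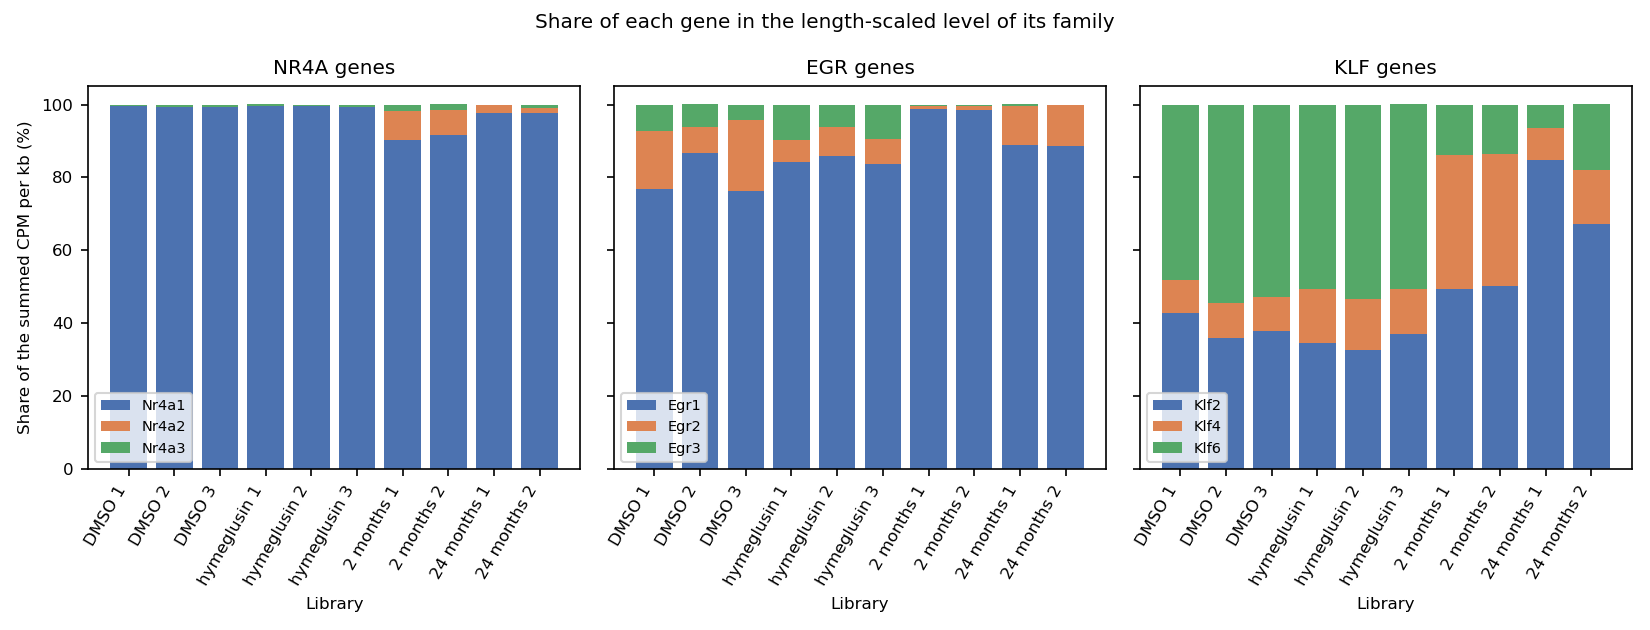
Share of each gene in the summed length-scaled level of its family (percent of CPM per kilobase), 1 stacked bar per library. Nr4a1 fills 90.3% or more of the NR4A bar in every library, and Klf2 reaches 67.1% and 84.9% of the KLF bar in the 24-month libraries.

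The comparison of hymeglusin with DMSO within MLTC-1 shows how these genes stood under an HMG-CoA synthase inhibitor: 6 of the 9 members tested rose and 0 fell. The risers were Nr4a1, Egr1, Egr3, Klf2, Klf4 and Klf6. Their libraries did not overlap with those of DMSO, and for Nr4a1, Egr3 and Klf4 the level was more than doubled. Nr4a3, Egr2 and Ier2 did not pass the test, and Nr4a2 was too low to be tested. Calls rest on edgeR's quasi-likelihood test, two-sided, at a Benjamini-Hochberg adjusted p under 0.05 over all 12873 genes tested. In that fit 48.3% of genes were called, 23.8% higher and 24.5% lower, and the median log2 fold change was 0.82 for the members tested and 0.01 for all genes. No member was lower at an unadjusted p under 0.05 or by DESeq2 either. The share of higher calls among all called genes depended on scaling: it was 49.4% here, 70.0% when libraries were scaled by total counts, which moved the median of all genes to 0.11, and 39.9% with an offset for transcript length.

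Nr4a1 rose 2.22-fold, or 1.15 on the log2 scale (SE 0.0597, adjusted p = 1.25e-17). It was called in 15 of 15 alternatives, between 1.10 and 1.26. Nr4a3 was higher in each of the 3 hymeglusin libraries than in any DMSO library, with a log2 change of 0.84 (SE 0.377), but its adjusted p was 0.0656. It passed with total count scaling (adjusted p = 0.0358) and without hymeglusin replicate 2 (adjusted p = 0.0476). Without overlap of the groups, 7 members were higher, as were 37.0% of all genes.

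Egr1 rose by 0.79 on the log2 scale (SE 0.131, adjusted p = 5.14e-06), from a low level. Egr3 rose by 1.24 (SE 0.435, adjusted p = 0.0177) on 6 to 11 counts per DMSO library and 17 to 28 per hymeglusin library. Its call was lost without DMSO replicate 2 (adjusted p = 0.0513), DMSO replicate 3 (0.0743), hymeglusin replicate 1 (0.0827) or hymeglusin replicate 3 (0.0588). Egr2 had a log2 fold change of -0.29 with a 95% interval from -1.19 to 0.61, so neither a fall of that size nor a rise could be told from the spread at 10 to 21 counts per library.

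Klf4 had the largest log2 fold change of the 9 members tested, at 1.38 (SE 0.139, adjusted p = 2.71e-10). Klf6 rose by 0.83 (SE 0.0699, adjusted p = 3.94e-12), a 1.77-fold change. Klf2 rose by 0.68 (SE 0.109, adjusted p = 2.82e-06). Ier2 had a log2 change of -0.12 (SE 0.0678, adjusted p = 0.145), and its 95% interval, from -0.26 to 0.02, did not reach 0.68, the smallest of the called changes. When all 10 libraries shared 1 fit and so 1 estimate of the spread, Nr4a1, Klf2 and Klf4 were called, and Egr1 (adjusted p = 0.112), Egr3 (0.0676) and Klf6 (0.164) were not.

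**Figure D3:**
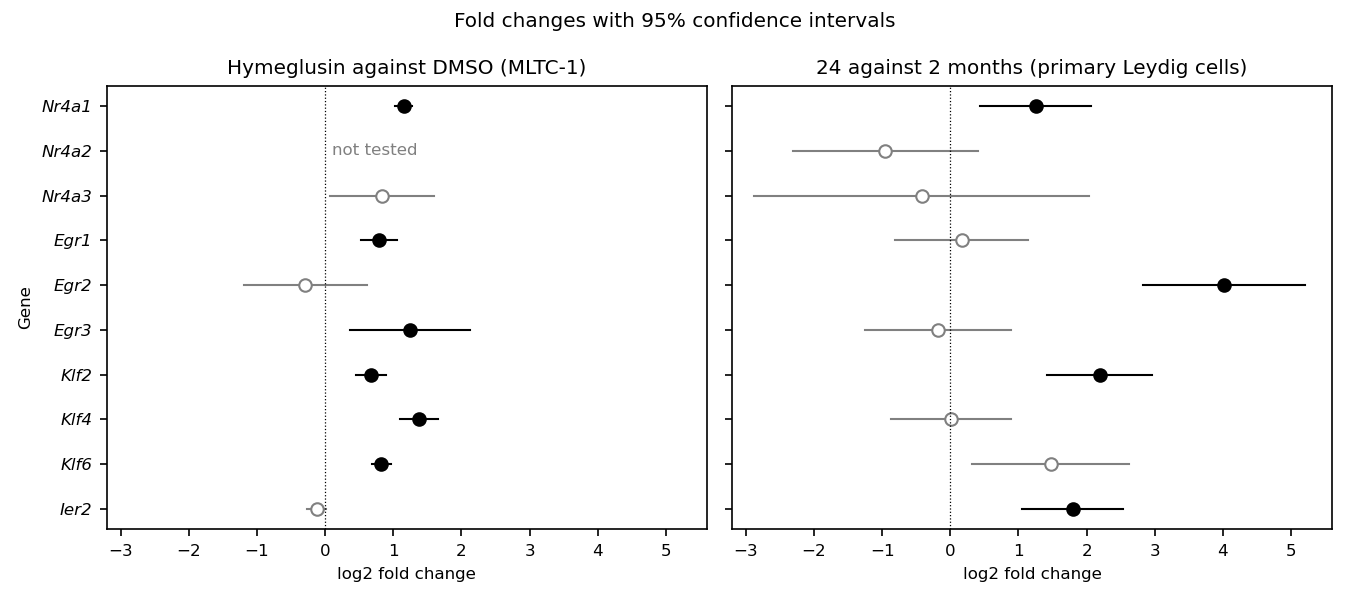
Log2 fold changes of the 10 genes with 95% confidence intervals, for hymeglusin against DMSO in MLTC-1 (left) and 24 against 2 months in primary Leydig cells (right). Filled points passed the adjusted p threshold of 0.05 and open points did not. Intervals are wider in the primary cells, where each group had 2 libraries, and Egr2 has the largest change at 4.02.

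Genes up and down the same pathways were examined in lists. Of all genes tested with hymeglusin, 23.8% rose and 24.5% fell. Of 25 other immediate early genes tested with hymeglusin, 15 rose and 3 fell, with a median log2 fold change of 0.32. Gadd45b, a stress-response gene, rose by 1.15 (SE 0.0994, adjusted p = 6.05e-12) and Dusp1, a phosphatase that switches off MAP kinases, by 0.73 (SE 0.068, adjusted p = 4.54e-11). Ier3 fell by 0.52 (SE 0.0858, adjusted p = 4.32e-06) and Nfkbiz, an NF-kB cofactor, fell by 0.39 (SE 0.0718, adjusted p = 2.91e-05). The rising count was 5 in 1 fit of all libraries and 9 among genes of at least 10 CPM. Of 11 other EGR and KLF genes, 1 rose and 5 fell. Klf5 rose by 0.36 (SE 0.143, adjusted p = 0.036), Klf15 fell by 0.55 (SE 0.0611, adjusted p = 2.28e-09) and Klf13 fell by 0.19 (SE 0.0511, adjusted p = 0.00291). The Klf5 call was lost by DESeq2 and without DMSO replicate 1 or 2 or hymeglusin replicate 1 or 3, and with total count scaling or in 1 fit of all libraries 1 gene of that list fell.

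Upstream of the members, 3 of 15 genes for the luteinizing hormone receptor, cAMP and MEF2 route rose and 6 fell with hymeglusin. Lhcgr, the receptor itself, fell by 0.87 (SE 0.0458, adjusted p = 2.21e-17) and Prkar2b, a regulatory subunit of protein kinase A, fell by 0.49 (SE 0.0579, adjusted p = 9.49e-09). Crtc1, a CREB coactivator, rose by 0.18 (SE 0.0543, adjusted p = 0.00568) and Crem, a cAMP-induced CREB relative, by 0.44 (SE 0.141, adjusted p = 0.0104). Without DMSO replicate 1 the rising count was 1. Of 9 ERK and serum response factor genes, Mrtfa (0.48, adjusted p = 1.61e-07) and Mrtfb (0.29, adjusted p = 3.31e-05), its coactivators, rose, and 3 fell, among them the kinases Map2k1 (-0.39, adjusted p = 9.24e-08) and Mapk3 (-0.31, adjusted p = 2.69e-06), a count of 5 without hymeglusin replicate 3. Of 11 corepressors and partners, 0 rose in edgeR, with 1 at an unadjusted p under 0.05 and 0 by DESeq2, and 4 fell. Rxra, the dimer partner of NR4A1, fell by 0.46 (SE 0.0513, adjusted p = 2.56e-09) and Nr5a1, the steroidogenic factor that shares target sites with it, fell by 0.29 (SE 0.0439, adjusted p = 9.23e-07).

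Leydig steroid genes, some of which NR4A factors are known to act on, went both ways with hymeglusin. Of 8 tested, 2 rose and 4 fell (23.8% and 24.5% of all genes), with a median of -0.37. Star had a log2 change of 0.10 (SE 0.0445, adjusted p = 0.0602). Cyp11a1, the side-chain cleavage enzyme, fell by 0.54 (SE 0.043, adjusted p = 8.66e-13), Hsd3b1 fell by 0.59 (SE 0.0447, adjusted p = 2.41e-13) and Cyp17a1 fell by 1.13 (SE 0.049, adjusted p = 1.13e-19). Scarb1, the lipoprotein receptor that brings in cholesterol, fell by 0.69 (SE 0.0451, adjusted p = 6.13e-15). Hsd3b6, the adult isoform, rose by 0.73 (SE 0.241, adjusted p = 0.0116) and Akr1c18, which breaks down progesterone, by 1.46 (SE 0.387, adjusted p = 0.00203), each from under 2 CPM. The rising count was 1 without DMSO replicate 1 or hymeglusin replicate 1. Insl3 had a log2 fold change of -0.20 (adjusted p = 0.25). Of the Leydig cell markers, 5 of 7 tested were lower and 0 higher. Star, not called, was at 428 to 447 CPM with DMSO and 492 to 503 CPM with hymeglusin. The Leydig cell markers summed to 8930 to 9180 CPM with DMSO and 6530 to 6680 CPM with hymeglusin. Macrophage markers summed to 0.569 to 1.07 CPM with DMSO and to 2.85 to 3.64 CPM with hymeglusin, with 1 of 2 tested higher and 7 of 12, Adgre1 and Ptprc among them, at 0 with DMSO. Csf1r gave most of that difference, at 0.0758 to 0.357 CPM with DMSO and 1.90 to 2.65 CPM with hymeglusin. Endothelial markers summed to 73.2 to 78.8 CPM and 97.9 to 106 CPM, with 2 of 3 tested higher, and Kdr, Tie1 and Emcn at 0 with DMSO. Cdh5 alone made up nearly all of the sum, at 72.3 to 77.4 CPM with DMSO and 96.0 to 103 CPM with hymeglusin. These libraries are all of the MLTC-1 line, so the sums are levels of marker transcripts in that line and do not measure cell types. Their relation to the members' values was not tested.

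In primary Leydig cells the question was which members differ between 24 and 2 months. Nr4a1, Egr2, Klf2 and Ier2 were higher at 24 months, which made 4 of 10 higher and 0 lower. Egr2 stood out in size, at 16.2-fold. Nr4a2, Nr4a3, Egr1, Egr3, Klf4 and Klf6 did not pass. By the same edgeR test over 16381 genes, 28.6% of genes were called, 13.5% higher and 15.1% lower, and the median log2 fold change was 0.71 for the 10 members and -0.01 for all genes. No member was lower at an unadjusted p under 0.05 or by DESeq2 either. The share of higher calls among called genes was 47.3%, against 29.0% with total count scaling, where the median of all genes was -0.21, 59.6% with upper quartile scaling, where it was 0.17, and 58.0% with the length offset. The groups did not overlap for 5 members on the higher side and 1 on the lower side, which held for 37.5% and 36.8% of all genes. Nr4a1 and Klf2 were higher both here and with hymeglusin, which is 33.3% of the 6 called there and 50% of the 4 called here. That is 2 of the 9 members tested in both. Of the 12356 genes tested in both, 260 (2.10%) were higher in both. These were 8.75% of the genes higher with hymeglusin and 20% of those higher at 24 months.

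Nr4a1 was 2.38-fold higher at 24 months, or 1.25 on the log2 scale (SE 0.36, adjusted p = 0.0312). The call was lost with total count scaling (1.07, adjusted p = 0.114), without 2-month replicate 1 (adjusted p = 0.315) and without 2-month replicate 2 (adjusted p = 0.242). Without 24-month replicate 2 the value was 0.78 and stayed called (adjusted p = 0.0109). Nr4a2 had a log2 change of -0.95 (SE 0.602, adjusted p = 0.25). Nr4a3 had -0.42 (SE 1.09, adjusted p = 0.795), a value that rested on 1 library: it was 0.42 without 24-month replicate 1, which had no Nr4a3 count, and passed as lower without 24-month replicate 2 (adjusted p = 0.0295), when that empty library stood alone.

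Egr2 was higher by 4.02 on the log2 scale (SE 0.531, adjusted p = 0.0036). It was called in 13 of 13 alternatives, between 3.10 and 4.48. Egr1 had a log2 change of 0.17 (SE 0.434, adjusted p = 0.79) with a 95% interval from -0.80 to 1.14. Its direction depended on which old library was kept: 0.62 (adjusted p = 0.0228) without 24-month replicate 1 and -0.68 (adjusted p = 0.0154) without 24-month replicate 2. Egr3 had -0.18 (SE 0.478, adjusted p = 0.794).

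Klf2 was 4.57-fold higher at 24 months, or 2.19 on the log2 scale (SE 0.341, adjusted p = 0.00632). Only leaving out 2-month replicate 1, among the 13 alternatives, ended that call (adjusted p = 0.107). Klf6 was higher in both 24-month libraries, with a log2 change of 1.47 (SE 0.512, adjusted p = 0.0563), and passed in 7 of 13 alternatives. It was 2.04 (adjusted p = 0.000369) without 24-month replicate 1 and 0.30 (adjusted p = 0.288) without 24-month replicate 2, the library in which Klf6 was at 286 CPM. Among the passing alternatives were DESeq2 (adjusted p = 0.00952) and RLE scaling (adjusted p = 0.0414). Klf4 had 0.01 (SE 0.39, adjusted p = 0.989), with a 95% interval from -0.87 to 0.89. Ier2 was 3.47-fold higher, or 1.80 on the log2 scale (SE 0.33, adjusted p = 0.00969), and it lost the call without 2-month replicate 1 (adjusted p = 0.199) or 2-month replicate 2 (adjusted p = 0.122). With 1 library left in a group, that library is assumed to vary like the pair of the other group.

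The log2 fold change with age followed annotated transcript length across all genes, and several members lie where the trend is steep. The median log2 fold change ran from 1.41 in the tenth of genes with the shortest transcripts to -1.41 in the tenth with the longest. It was 0.93 in the tenth that holds Ier2, 0.56 in that of Klf2, 0.21 in that of Nr4a1, 0.01 in that of Egr2 and Klf4, -0.41 in that of Egr3 and Klf6 and -0.70 in that of Egr1. With an offset that removes the trend, Ier2 was at 1.05 (adjusted p = 0.0261), Klf2 at 1.64 (adjusted p = 0.00111), Nr4a1 at 1.12 (adjusted p = 0.0221) and Egr2 at 4.05 (adjusted p = 3.34e-06), so these 4 calls held. Klf6 then passed as well, at 1.90 (adjusted p = 0.00313), and Egr1 was at 0.70 (adjusted p = 0.168).

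**Figure D4:**
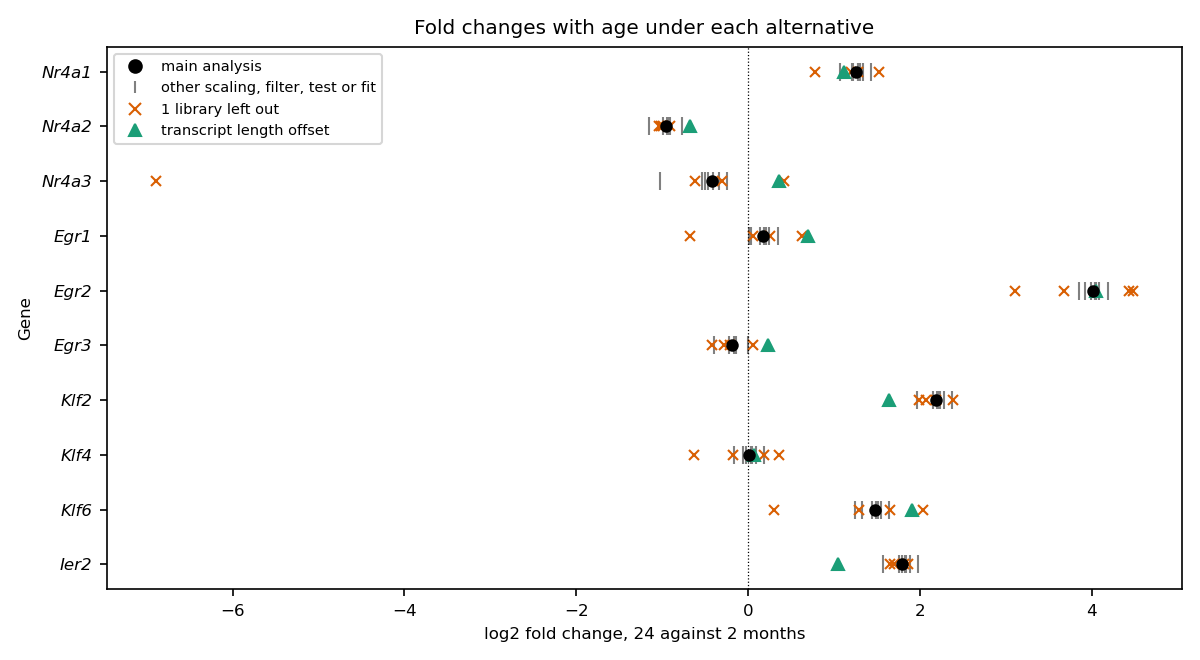
Log2 fold change of each gene at 24 against 2 months in the main analysis (filled points), with 1 library left out (crosses), with the transcript length offset (triangles) and under the other scalings, filters, tests and fits (ticks). Egr2 stays between 3.10 and 4.48, Egr1 and Klf4 fall on both sides of 0, and the outlying cross of Nr4a3 is the fit without 24-month replicate 2.

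Markers of other cells moved with age in the same libraries. Neutrophil markers summed to 0.741 to 0.947 CPM at 2 months and 15.7 to 104 CPM at 24 months, with 6 of 6 tested higher, 7 of 8 at 0 at 2 months, and Ly6g at 0 in both groups. Macrophage markers summed to 22.9 to 24.4 CPM and to 160 CPM in both old libraries, with 5 of 11 tested higher and none at 0. Cd14 gave most of the old sum, at 8.28 to 9.02 CPM at 2 months and 97.6 to 110 CPM at 24 months, while Adgre1 stood lower in the old libraries (0.439 and 0.266 CPM) than in the young ones (0.576 and 0.947 CPM). Spermatid markers summed to 1640 to 2220 CPM and 5440 to 10600 CPM, with 6 of 7 higher and none at 0. Fibroblast markers summed to 638 to 648 CPM at 2 months and 87.2 to 162 CPM at 24 months, with 3 of 5 lower, 1 higher and none at 0. Endothelial markers, relevant to Klf2, summed to 18.9 to 19.7 CPM and 14.8 to 34.9 CPM, with 1 of 5 higher. Lymphocyte markers, relevant to Egr2 and Klf2, summed to 4.26 to 6.09 CPM and 8.17 to 15.5 CPM, with 0 of 2 tested higher. Leydig cell markers summed to 17100 to 19000 CPM and 15900 to 23400 CPM, and the red blood cell markers were at 0 throughout. The part of these cells in the members' values was not tested. In bulk RNA fewer cells of a type and less RNA per cell cannot be told apart.

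Of 28 other immediate early genes tested at 24 months, 15 rose, 0 fell and 13 did not pass. Of all genes tested there, 13.5% rose and 15.1% fell. The log2 fold change was above 0 for all 28, with a median of 1.20. Gadd45b rose by 4.07 (SE 0.369, adjusted p = 0.000808) and Ier3, which fell with hymeglusin, rose by 3.35 (SE 0.344, adjusted p = 0.0014). No gene of this list was lower at an unadjusted p under 0.05 or by DESeq2. The rising count was 8 with total count scaling, 5 without 2-month replicate 1, 6 without 2-month replicate 2 and 24 without 24-month replicate 1, and 3 genes of the list were lower without 24-month replicate 2. Of 14 other EGR and KLF genes, Klf5 rose by 1.99 (SE 0.569, adjusted p = 0.0308), while Klf12 fell by 2.70 (SE 0.618, adjusted p = 0.0163) and Klf13 fell by 1.47 (SE 0.343, adjusted p = 0.0172). No gene of that list was higher without either 2-month library or without 24-month replicate 1, and the falling count was 1 without either 2-month library and 6 without 24-month replicate 2.

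**Figure D5:**
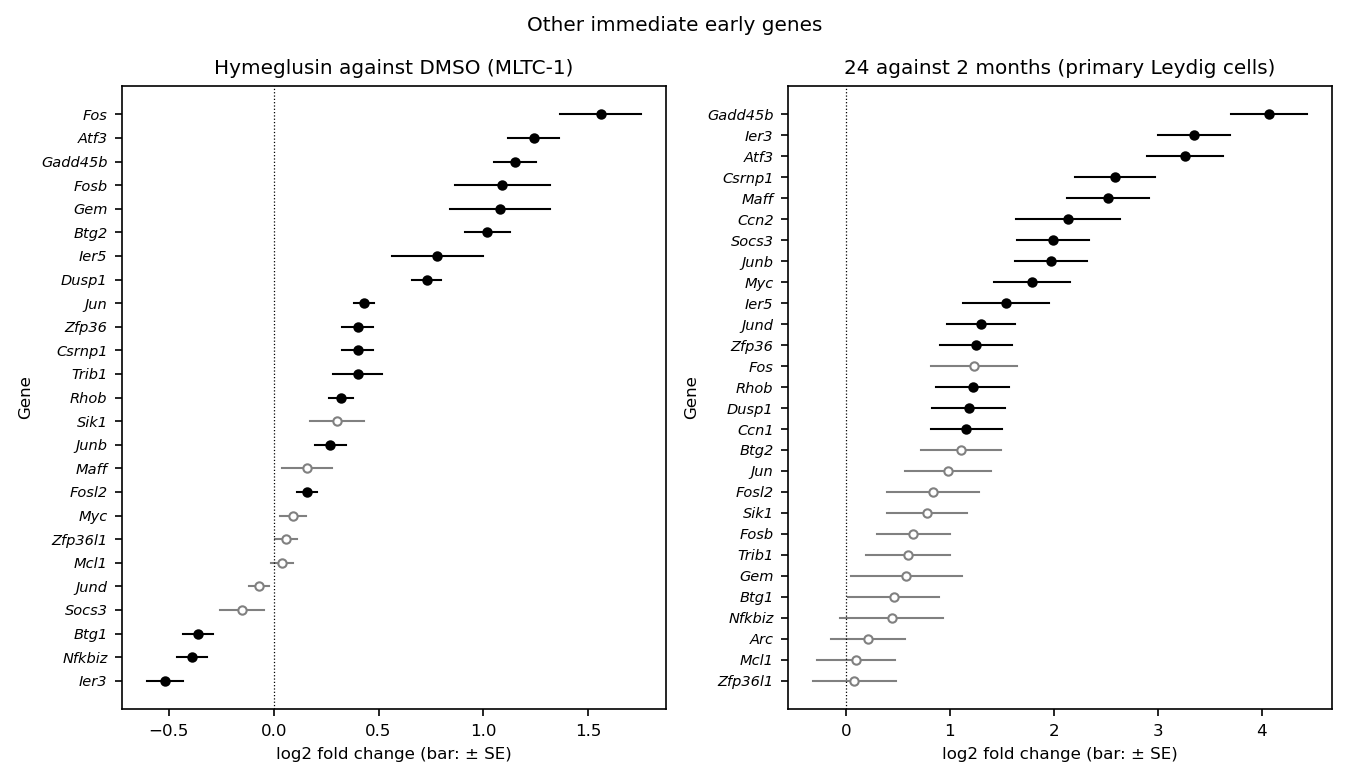
Log2 fold change ± SE of the other immediate early genes tested, for hymeglusin against DMSO in MLTC-1 (left) and 24 against 2 months in primary Leydig cells (right). Filled points passed the adjusted p threshold of 0.05, and the horizontal scales differ. On the right all 28 points are above 0, and on the left 3 filled points are below it.

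The inputs to the members were lower or not called at 24 months. In the luteinizing hormone receptor, cAMP and MEF2 list 0 of 15 rose and 7 fell, with a median of -1.16. Among all genes 13.5% rose and 15.1% fell. Crtc1 fell by 1.93 (SE 0.349, adjusted p = 0.00939) and Mef2d, a MEF2 factor that acts on Nr4a1, fell by 1.90 (SE 0.377, adjusted p = 0.0116). Lhcgr, named here after its values were seen, fell by 1.49 (SE 0.342, adjusted p = 0.0163). No gene of that list was higher at an unadjusted p under 0.05 or by DESeq2. The falling count was 4 with the length offset or with total count scaling, 0 without 2-month replicate 1 and 2 without 2-month replicate 2. Of 10 ERK and serum response factor genes, Elk4 fell by 2.19 (SE 0.421, adjusted p = 0.0105) and Mrtfb fell by 1.88 (SE 0.405, adjusted p = 0.0138), and 0 rose, also at an unadjusted p under 0.05 and by DESeq2. The falling count was 1 with the length offset or without 2-month replicate 2, 4 without 24-month replicate 1 and 6 without 24-month replicate 2, when 2 rose.

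Corepressors and partners went both ways, with 3 of 12 higher and 5 lower (13.5% and 15.1% of all genes). Nr0b1 (DAX1), a repressor of steroid genes, rose by 2.46 (SE 0.401, adjusted p = 0.00717) and Nr0b2 (SHP), another orphan receptor that represses, by 1.98 (SE 0.468, adjusted p = 0.0181). The corepressor Ncor1 fell by 2.30 (SE 0.446, adjusted p = 0.0109). With the length offset, as without 2-month replicate 1, 1 was higher and 2 were lower, and without 2-month replicate 2 the counts were 1 and 3. Of 9 steroid genes tested, 1 rose and 0 fell, and 1 in all had an unadjusted p under 0.05. DESeq2 made the same counts. Star had a log2 change of -0.56 (SE 0.342, adjusted p = 0.235), Cyp11a1 -0.22 (adjusted p = 0.657), Cyp17a1 -0.25 (adjusted p = 0.612) and Scarb1 -0.66 (adjusted p = 0.153). Hsd3b1 was at 0.71 (adjusted p = 0.139), Hsd3b6 at 0.56 (adjusted p = 0.265), Hsd17b3 at 0.00 (adjusted p = 0.992) and Cyp19a1 at -0.15 (adjusted p = 0.884). Insl3, a Leydig cell hormone, rose by 1.73 (SE 0.483, adjusted p = 0.0285). Its gene lies inside the bounds of Jak3, and since the use of strand in counting is not given, reads of the pair may not be told apart. The list held 0 higher with the length offset, with total count scaling and without either 2-month library. Without 24-month replicate 1 it held 2 higher and 2 lower, and without 24-month replicate 2 it held 3 higher and 2 lower.

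DMSO-treated MLTC-1 was set against primary cells of 2 months to place the line beside young cells. This comparison shares its libraries with both others. In the line 8 of 10 members were lower, Nr4a1 was higher, and Nr4a3 did not pass, by the same edgeR test over 16092 genes, of which 82.8% were called, 34.4% higher and 48.5% lower. The median log2 fold change was -3.43 for the members and -0.27 for all genes, which the length offset moved to 0.74. Nr4a1 was 2.16-fold higher in the line, or 1.11 on the log2 scale (SE 0.107, adjusted p = 1.02e-05), and 2.25 with the length offset. Egr1 was 194-fold lower, at -7.60 (SE 0.122, adjusted p = 5.32e-10). Klf4 was 38.5-fold lower, Klf2 12.8-fold, Egr3 12.0-fold, Egr2 9.76-fold, Ier2 6.79-fold and Klf6 2.62-fold, with log2 fold changes from -5.27 to -1.39. The length offset brought all of these log2 fold changes nearer to 0, to -6.95 for Egr1, -4.40 for Klf4, -2.31 for Klf2, -2.89 for Egr3, -2.39 for Egr2, -1.17 for Ier2 and -0.74 for Klf6, each still called. Nr4a2, with 0 counts in the DMSO libraries, was at least 55.5-fold lower, taking 3 counts over the 3 libraries as the most that a count of 0 allows. That limit covers counting error only. Nr4a3 was at -0.49 (SE 0.464, adjusted p = 0.343). Line against primary cells, culture and cell isolation cannot be told apart here.

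The genes whose pattern was most like that of a member were sought by the root-mean-square difference of log2 CPM over the 10 libraries, after each gene was centred within MLTC-1 and within primary cells, among 10140 genes. Nearest to Nr4a1 were Tubb2a (0.152), Btg2 (0.182) and Dusp1 (0.191), against a median of 0.717 over all genes. Btg2 and Dusp1 are immediate early genes as well. Nearest to Egr1 were Terf1 (0.154), Mis18a (0.158) and Rccd1 (0.159), with a median of 0.543. Nearest to Klf6 were Sowahc (0.242), Jun (0.248) and Plau (0.261), with a median of 0.744. The libraries share groups, depth and composition, so these distances are a description.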

How the data were processed

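No source used here gives the strand or annotation of counting. RNA was taken with a column kit and libraries were made with NEBNext Ultra, per the labels' protocols. The authors deposited raw read counts per gene symbol. Per the submitters' processing notes, which give no order, fastp 0.23.4, FastQC 0.12.1, HISAT2 2.2.1, featureCounts 2.0.6 and mm10 were used. Without strand, antisense reads cannot be told apart. No exon of a member overlaps an exon of another gene in GENCODE M21 (0 of 10).

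Groups came from the titles. Each comparison was fitted on its own libraries with edgeR 4.0.16 (R 4.3.3): filterByExpr, TMM, robust quasi-likelihood F-test, two-sided, Benjamini-Hochberg adjustment over all genes tested, threshold 0.05. Levels are CPM with TMM over all 10 libraries, so ratios of levels differ slightly from fitted folds. Alternatives were other scalings, DESeq2 1.42.0, other filters, a replicate block, 1 fit of all libraries, a transcript length offset (loess, span 0.3) and each library left out. The same alternatives were applied to the gene lists, a choice made after seeing the data. The scripts were tested on simulated counts. Libraries held 17407456 to 34787330 counts, and 3 counts correspond to 0.0845 to 0.219 CPM.

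The members and lists were chosen with earlier results of these data known. Named genes are all members, every tested steroid gene, up to 2 genes per list and direction by adjusted p for hymeglusin and age, and the 3 genes nearest to Nr4a1, Egr1 and Klf6. A gene that this rule would name is not reported here. Markers of 11 cell types were summed.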

Additional observations from a re-analysis of the deposited data

How the results depend on the processing

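With hymeglusin, 6 members were higher: 3 were among genes of at least 10 CPM, where 4 members were tested, 3 in 1 fit of all 10 libraries, and 5 to 7 with each library left out. All genes called numbered 6218, 934 in 1 fit of all libraries and 5397 to 5964 with a library left out. With age, 4 members were higher and 1 to 6 with a library left out, and 0 were lower and 0 to 2. All genes called with age numbered 4685, against 1832 with total count scaling, 8868 in 1 fit of all libraries, 2635 with the length offset and 841 to 9887 with a library left out. Between DMSO and 2 months, 8 members were lower and 5 among genes of at least 10 CPM, where 6 were tested. All genes called there numbered 13331, 8485 with that filter and 12587 to 13512 with a library left out. The fewer genes tested account for the counts under that filter. For the other shifts the cause was not tested.

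Direction turned in 12 cases, none of them called in the main analysis. With hymeglusin Egr2 ran from -0.66 to 0.07 with a library left out, and between DMSO and 2 months Nr4a3 was 0.18 with the length offset. With age and a library left out, Klf4 ran from -0.63 to 0.36, Nr4a3 from -6.89 to 0.42, Egr3 from -0.42 to 0.06 and Egr1 from -0.68 to 0.62. Klf4 was -0.17 with total counts, -0.022 without a count filter, -0.063 with the block and -0.18 without 2-month replicate 1. With the length offset Nr4a3 was 0.36 and Egr3 0.23.

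The labels do not say whether replicate numbers pair the libraries. Same-number deviations correlated at 0.002, -0.018 and 0.028 in MLTC-1, and different numbers at -0.03 to 0.027. With 3 libraries per group these values gave no sign of pairing but cannot exclude it. In primary cells same-number deviations correlated at -0.084 and different numbers at 0.084. With 2 libraries per group these are 1 value with opposite signs, so they cannot decide on pairing. With a replicate block 6360 genes were called with hymeglusin and 4774 with age, and Klf6 became the fifth member higher with age (adjusted p = 0.0282). Depth limits Nr4a2, Nr4a3, Egr2 and Egr3 in MLTC-1, at 37 counts or fewer per library.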
